A study of Mus musculus with 4 samples.

Results

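Metallothioneins are small cysteine-rich proteins that bind zinc and copper, and the 5 genes described here are 3 of the mouse metallothionein genes and 2 genes of the cell's answer to zinc. They were found by symbol among the 30828 genes of each of 2 count matrices of testis cells, 1 row each. The list was chosen by how these genes had behaved between the same libraries, so every difference between genotypes below is a description and carries no test. *Mt1* and *Mt2* encode the broadly expressed metallothioneins, *Mt3* a form best known from brain, *Mtf1* the zinc-sensing transcription factor that switches metallothionein genes on, and *Slc30a1* the zinc exporter of the plasma membrane.

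When free zinc in a cell rises, MTF1 enters the nucleus and binds metal response elements in front of *Mt1*, *Mt2* and *Slc30a1*, so that zinc is bound by metallothionein and pumped out. *Mt1* and *Mt2* also answer to glucocorticoids, oxidants and cadmium. In the testis they are known for high levels in germ cells.

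Testes were taken at postnatal day 8 from mice with floxed *Cnot3* on both alleles. *Cnot3* encodes a subunit of the CCR4-NOT complex, which shortens poly(A) tails. The Cnot3-cKO mice (Cnot3flox/flox; Ddx4-creER, "Cnot3 KO" in the labels) also carried a tamoxifen-dependent Cre driven by the germ cell gene *Ddx4*, and the control mice (Cnot3flox/flox by the design text, "wild-type" in the labels) did not. Both genotypes received 4-OHT from day 1. The labels put the last injection at day 1 and day 2 in the control samples and at day 3 and day 4 in the Cnot3-cKO samples, whereas the methods give day 3. CD9 and THY1 sorted cells were run on the 10x Genomics 3′ platform, which counts each captured RNA molecule once as a unique molecular identifier (UMI). Both samples of a genotype were merged into 1 matrix, so the comparison is of 1 control library with 1 Cnot3-cKO library, without replicates, and neither animal nor the labelled injection schedule can be told apart from genotype. It is not stated in the labels if the pair of samples under 1 genotype came from different mice or from sequencing 1 library again.

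The control library held 181550221 UMIs and the Cnot3-cKO library 168770743. After cell calling and removal of barcodes over 20% mitochondrial UMIs, 8259 control and 9268 Cnot3-cKO cells remained, of which 18 barcodes were shared. Germ-like cells were 16.1% of control and 6.04% of Cnot3-cKO cells, so most cells that passed the sort were Sertoli-like or interstitial. Levels are UMIs of a gene per 1000000 UMIs (CPM) of a cell class in a library, with 95% intervals that cover counting error only. The targeted *Cnot3* was at 71.1 CPM in control and 39.4 CPM in Cnot3-cKO germ-like cells, and at 63.8 and 67.5 CPM in Sertoli-like cells.

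*Mt1*, *Mt2* and *Mt3* lie side by side on the plus strand of mouse chromosome 8 (GRCm38, GENCODE M21), with *Mt4* as the fourth gene of the cluster, which spans 43131 bases. *Mt1* (ENSMUSG00000031765.8) is at chr8:94179082-94180327, *Mt2* (ENSMUSG00000031762.7) at chr8:94172664-94173568 and *Mt3* (ENSMUSG00000031760.9) at chr8:94152607-94154146, each with 3 exons. *Mtf1* (ENSMUSG00000028890.13) is at chr4:124802104-124849800 with 11 exons, and *Slc30a1* (ENSMUSG00000037434.7) at chr1:191906767-191913247 with 2. The transcripts of *Mt1*, *Mt3*, *Mtf1* and *Slc30a1* share no run of 30 bases with transcripts of another gene, and *Mt2* shares 0.697% of its 30-base runs with *Pip5k1a*.

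Because *Mt1*, *Mt2* and *Slc30a1* are the textbook targets of MTF1, the 250 bases before their RefSeq starts are shown (plus strand, 5′ to 3′, GRCm38.p6). Capitals mark the core of the metal response element, TGCACNC or TGCGCNC, found on either strand.
*Mt1*, chr8:94178839-94179088: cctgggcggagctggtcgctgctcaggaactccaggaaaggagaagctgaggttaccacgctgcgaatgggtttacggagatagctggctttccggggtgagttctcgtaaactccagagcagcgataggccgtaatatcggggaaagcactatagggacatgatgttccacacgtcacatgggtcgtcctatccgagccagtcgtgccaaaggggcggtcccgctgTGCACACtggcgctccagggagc
*Mt2*, chr8:94172368-94172617: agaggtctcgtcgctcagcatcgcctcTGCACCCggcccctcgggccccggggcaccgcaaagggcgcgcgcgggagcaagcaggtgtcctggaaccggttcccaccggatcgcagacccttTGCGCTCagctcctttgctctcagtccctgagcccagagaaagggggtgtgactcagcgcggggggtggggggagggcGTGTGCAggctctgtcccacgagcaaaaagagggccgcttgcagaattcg
*Slc30a1*, chr1:191906531-191906780: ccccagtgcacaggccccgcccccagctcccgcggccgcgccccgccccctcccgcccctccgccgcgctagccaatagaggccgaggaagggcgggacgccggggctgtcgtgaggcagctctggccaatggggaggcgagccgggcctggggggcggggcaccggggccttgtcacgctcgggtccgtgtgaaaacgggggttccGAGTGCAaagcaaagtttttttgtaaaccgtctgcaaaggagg

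The core occurred once in this window of *Mt1*, 3 times in that of *Mt2* and once in that of *Slc30a1*. It was not found in these windows of *Mt3* and *Mtf1*. Of 32841 promoters of the same length in the RefSeq table, 21.4% held at least 1 match and 1.26% at least 3. GENCODE annotates 3 starts for *Mt1*, of which the last lies 152 bases past the RefSeq start. The 250 bases before that last start, chr8:94178991-94179240, held 5 matches at 175, 150, 132, 68 and 54 bases before it, and 0.0822% of the RefSeq windows held 5 or more. The last of 2 GENCODE starts of *Mt2* lies 242 bases past its RefSeq start, and the 250 bases before it held 4 matches. In the 300-base entries of the RefSeq table, which run past the start, *Mt1* held 3 matches, *Mt2* 4, *Slc30a1* 2, *Mt3* 1 and *Mtf1* none, and 25.7% of promoters held at least 1. *Mt4* held 1 match in both the shorter and the longer RefSeq window. The windows before the last starts were chosen after the RefSeq ones had been seen, and a match of letters is not evidence of binding.

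In germ-like cells *Mt1* and *Mt2* were the metallothioneins of high level, and both were higher in the Cnot3-cKO library. *Mt1* stood at 743 CPM in 1333 control cells (42074 UMIs, 736 to 750) and at 1433 CPM in 560 Cnot3-cKO cells (37193 UMIs, 1419 to 1448), a log2 ratio of 0.95 (0.93 to 0.97), or 1.93-fold. *Mt2* stood at 625 CPM in control and 931 CPM in Cnot3-cKO germ-like cells, a log2 ratio of 0.58 (0.55 to 0.60). *Mt3* was low in germ-like cells, at 12.2 and 19.0 CPM, with a log2 ratio of 0.64 (0.47 to 0.81). The zinc sensor *Mtf1* stood at 61.2 and 67.5 CPM, a log2 ratio of 0.14 (0.06 to 0.23), and the exporter *Slc30a1* at 22.8 and 21.2 CPM, a log2 ratio of -0.11 whose interval included no difference (-0.25 to 0.04). The 3 metallothioneins thus had log2 ratios above 0.5, and the zinc sensor and the exporter had not.

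Past 1.5-fold lay *Mt1* and *Mt3*, 2 of the 5 genes, and *Mt2* was just inside at 1.49-fold. Over the 13297 genes that had 100 or more UMIs in this class, 6.84% were at least 1.5-fold higher and 3.14% at least 1.5-fold lower in Cnot3-cKO. Since the genes were chosen on this contrast, nothing is read from the count. A higher ratio than that of *Mt1* was seen in 2.20% of the genes, than *Mt3* in 5.58%, than *Mt2* in 7.01%, than *Mtf1* in 35.1% and than *Slc30a1* in 66.2%. The median log2 ratio of the 5 genes was 0.58, against 0.02 over all genes tested.

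**Figure D1:**
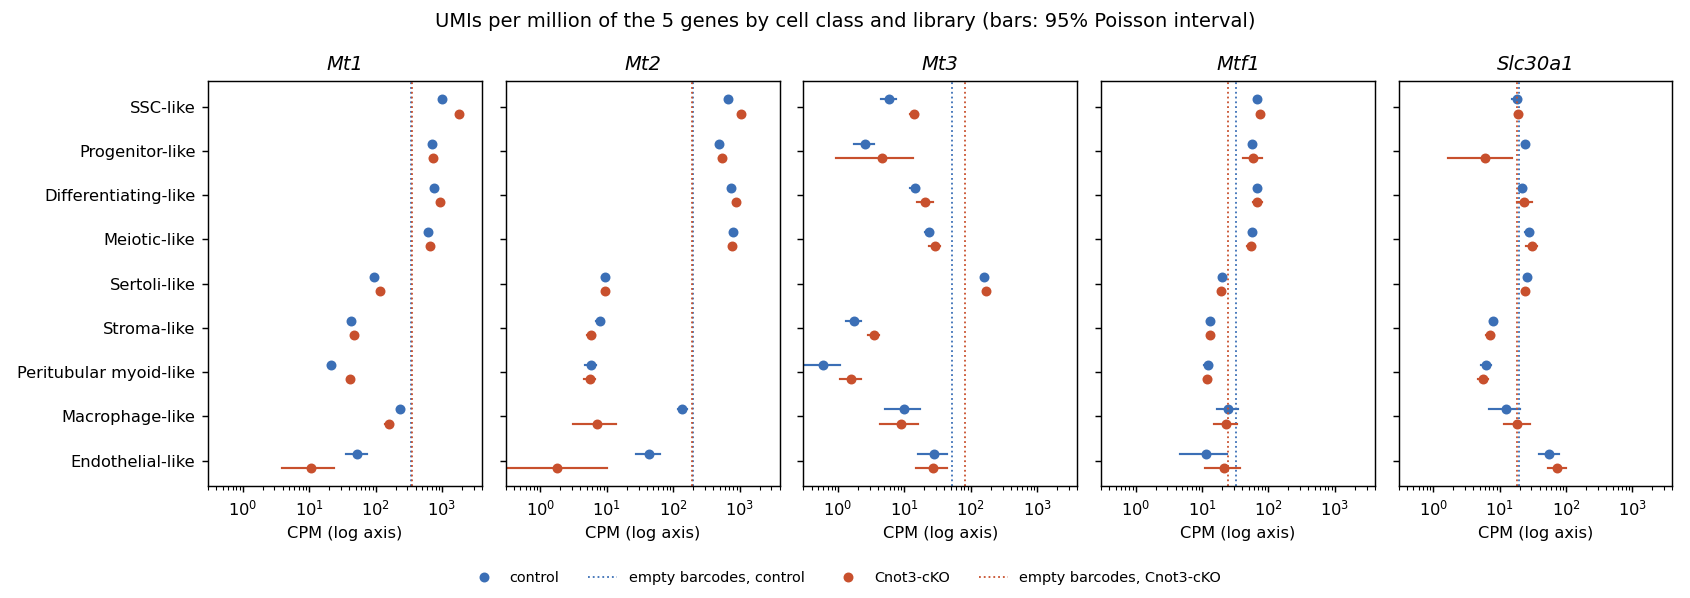
Level in CPM (log axis) of the 5 genes in each cell class, for control (blue) and Cnot3-cKO (red), with 95% Poisson intervals as bars and the level in empty barcodes as dotted lines. *Mt1* and *Mt2* are highest in the 4 germ stages, *Mt3* in Sertoli-like cells at 157 and 167 CPM, and *Slc30a1* in endothelial-like cells at 55.5 and 73.6 CPM.

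Germ-like cells were split by clustering without the 5 genes, the listed genes and cell-cycle genes, and sub-clusters were named from markers. The control library held 261 SSC-like, 329 progenitor-like, 300 differentiating-like and 229 meiotic-like cells, and the Cnot3-cKO library 311, 14, 54 and 85. Each marker list was higher in its own stage than in the other stages in both libraries. The ratio was smallest for the meiotic list, at 974 CPM against 715 in differentiating-like control cells. Since the stages were named from these same lists, this was nearly given in advance and does not test the names. A further 214 and 96 germ-like cells formed sub-clusters led by stromal or Sertoli genes. Of these, 85.5% and 78.1% were called doublets, and they took no stage name.

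In control cells *Mt1* was highest in SSC-like cells at 1003 CPM (984 to 1022), lower in differentiating-like cells at 765 CPM and progenitor-like cells at 718 CPM, and lowest of the stages in meiotic-like cells at 621 CPM (605 to 638). *Mt2* had another order in control, with meiotic-like cells highest at 785 CPM, then differentiating-like at 750 CPM, SSC-like at 674 CPM and progenitor-like at 484 CPM. No neighbours in either order overlapped in their counting intervals, the closest being meiotic-like and differentiating-like cells for *Mt2* (767 to 804 and 736 to 765). These intervals leave out the spread between cells, which was wider than counting error. The order of stages with close values is therefore not settled. *Mt3* was at 2.50 CPM in progenitor-like and 5.78 CPM in SSC-like cells, and at 14.2 CPM in differentiating-like and 23.8 CPM in meiotic-like control cells. *Mtf1* was between 55.8 and 67.9 CPM in all 4 stages, and *Slc30a1* between 18.0 CPM in SSC-like and 27.6 CPM in meiotic-like cells.

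The change of order between *Mt1* and *Mt2* shows in the share of *Mt1* in their summed UMIs, which does not depend on the other genes. That share was 59.8% (59.1 to 60.5) in SSC-like, 59.8% in progenitor-like, 50.5% in differentiating-like and 44.2% (43.3 to 45.1) in meiotic-like control cells. In Cnot3-cKO it was 63.2% (62.7 to 63.6), 57.6%, 51.2% and 46.5%, so it fell along the same stages in both libraries. In Sertoli-like cells the share was 91.0% and 92.5%, and in stroma-like cells 84.4% and 89.1%. Much of the *Mt2* in these 2 classes was estimated to be free RNA. It came to 7.45 of 9.39 CPM in control and 4.81 of 9.40 CPM in Cnot3-cKO Sertoli-like cells, and to 5.40 of 7.79 and 3.96 of 5.78 CPM in stroma-like cells. Their shares are therefore not read as those of the cells alone.

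**Figure D2:**
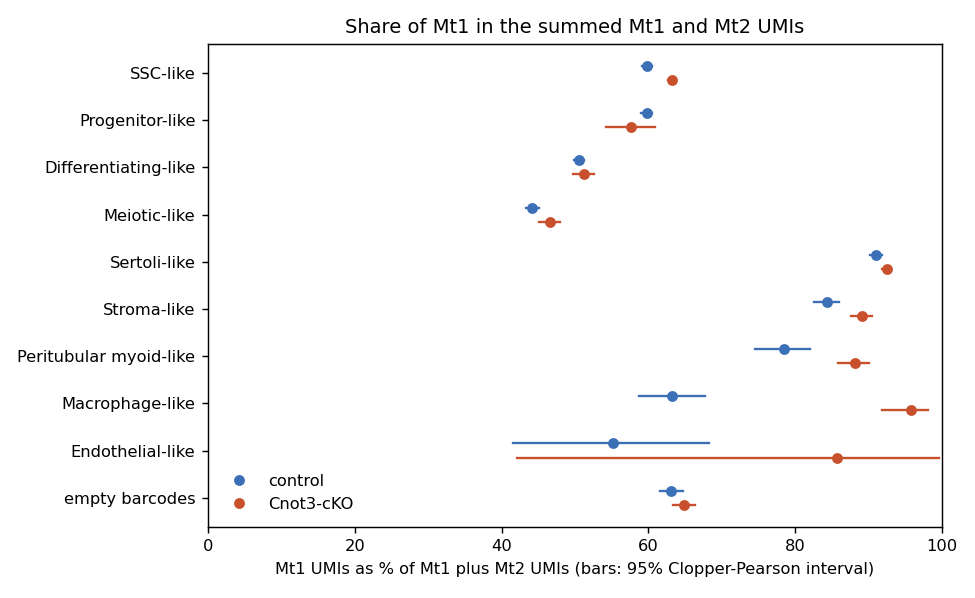
Share of *Mt1* in the summed *Mt1* and *Mt2* UMIs (%, x axis) by cell class for control (blue) and Cnot3-cKO (red), with 95% Clopper-Pearson intervals. The share is lowest in meiotic-like cells, at 44.2% and 46.5%, above 90% only in Sertoli-like cells of both libraries and in Cnot3-cKO macrophage-like cells, and 63.1% and 64.8% in empty barcodes.

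SSC-like cells, those with markers of spermatogonial stem cells, differed between genotypes. Their marker lists were not alike either. The differentiating list stood at 770 CPM in Cnot3-cKO SSC-like cells, the highest outside its own stage. In control that place went to progenitor-like cells at 631 CPM, so control SSC-like cells were no higher than that. The SSC list stood at 377 CPM in control and 337 CPM in Cnot3-cKO SSC-like cells. *Mt1* stood at 1003 CPM in control and 1831 CPM (1809 to 1854) in Cnot3-cKO SSC-like cells, a log2 ratio of 0.87 (0.84 to 0.90). *Mt2* stood at 674 and 1067 CPM, a log2 ratio of 0.66 (0.62 to 0.70), and *Mt3* at 5.78 and 14.0 CPM, from 60 and 204 UMIs, a log2 ratio of 1.28 (0.86 to 1.72). *Mtf1* (67.9 and 74.0 CPM) and *Slc30a1* (18.0 and 19.1 CPM) had intervals that included no difference. In SSC-like cells 3 of the 5 genes were at least 1.5-fold higher. Of the 10377 genes tested there, 9.27% were at least 1.5-fold higher and 4.49% at least 1.5-fold lower. Since the genes were chosen on this contrast, nothing is read from the count.

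In the other stages the differences were smaller under this clustering. *Mt1* was at 718 and 734 CPM in progenitor-like cells, at 765 and 936 CPM in differentiating-like cells (log2 ratio 0.29, 0.23 to 0.36) and at 621 and 664 CPM in meiotic-like cells (log2 ratio 0.10, 0.02 to 0.17). *Mt2* was at 750 and 892 CPM in differentiating-like cells and at 785 and 763 CPM in meiotic-like cells, where the interval of its log2 ratio (-0.11 to 0.02) included no difference. The progenitor-like values of Cnot3-cKO rest on 14 cells, and *Slc30a1* there on 4 UMIs, at 6.05 CPM against 24.3 CPM in control. With the 4 stages weighted as in the control library, the log2 ratio was 0.40 for *Mt1* and 0.28 for *Mt2*, against 0.95 and 0.58 unweighted. At control levels in every stage, the Cnot3-cKO stage mix alone gave a log2 ratio of 0.22 for *Mt1* and 0.08 for *Mt2*. Both calculations used the stages of the main clustering only. The weighted ratios took the progenitor-like level of Cnot3-cKO from the same 14 cells.

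How cells were assigned to stages bore on these values. The SSC-like cells consisted of 2 sub-clusters. One, led by *Lhx1*, *Tcl1*, *Foxc2* and *Ret*, held 259 control and 33 Cnot3-cKO cells. In it *Mt1* stood at 1002 and 1353 CPM (log2 ratio 0.43, 0.36 to 0.50) and *Mt2* at 674 and 906 CPM, both 1.35-fold. The *Mt3* log2 ratio there was 0.72, from 59 and 13 UMIs, with an interval that included no difference (-0.27 to 1.61). The other, led by *Nefm*, *Krt18*, *Capg* and *Id4*, held 2 control and 278 Cnot3-cKO cells, with *Mt1* at 1881 CPM and *Mt2* at 1084 CPM in the latter, so in it library and cell state cannot be told apart. With gene values centred per library ahead of clustering, the SSC-like cells numbered 398 and 242, and *Mt1* stood in them at 973 and 1912 CPM (log2 ratio 0.97), in 203 and 31 progenitor-like cells at 602 and 1392 CPM (log2 ratio 1.21), in differentiating-like cells at 754 and 1125 CPM (log2 ratio 0.58) and in meiotic-like cells at 517 and 569 CPM (log2 ratio 0.14). Over the 5 alternatives that gave progenitor-like cells, the *Mt1* log2 ratio there ran from 0.11 to 1.21, and over 6 alternatives that of meiotic-like cells ran from -0.09 to 0.20, so the progenitor-like value depended on how cells were assigned.

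**Figure D3:**
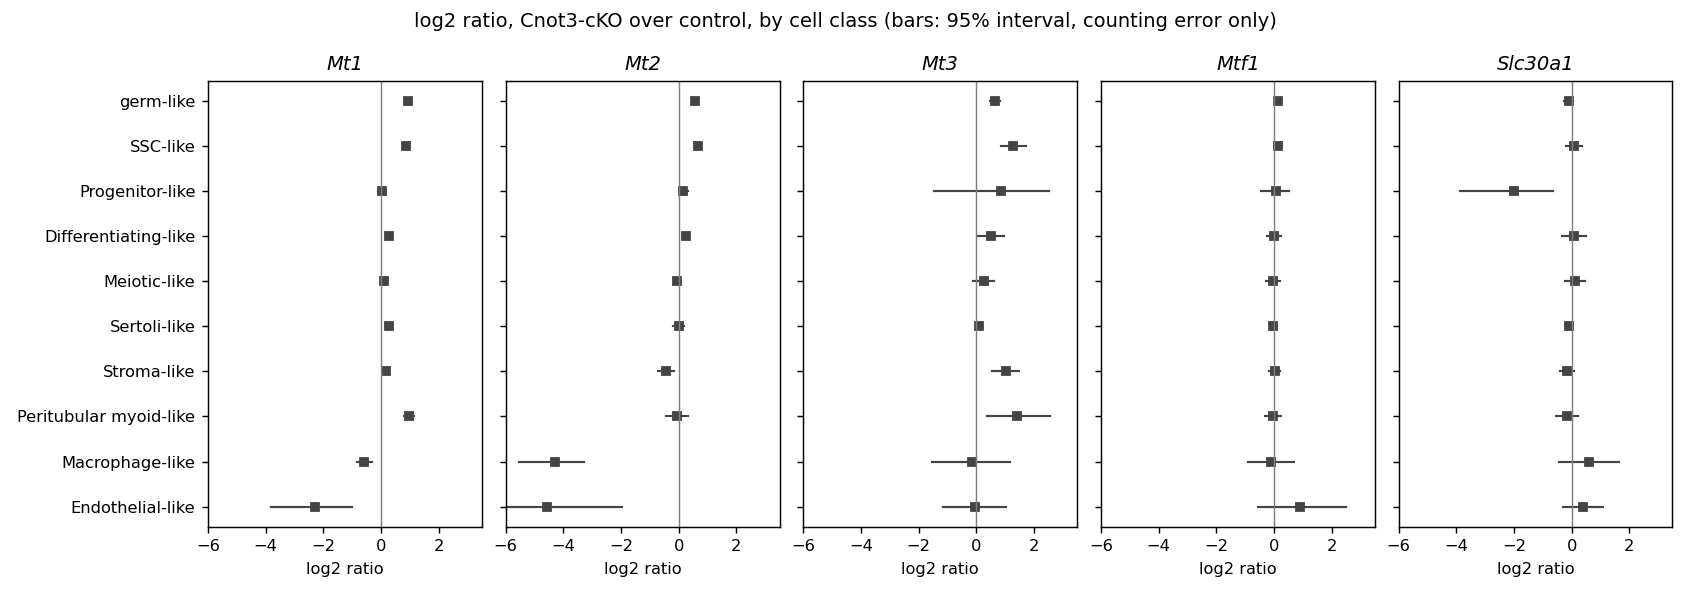
Cnot3-cKO over control as a log2 ratio (x axis) for the 5 genes, in all germ-like cells and in each cell class, with 95% intervals for counting error (bars cut at the axis limits). *Mt1* and *Mt2* lie at 0.95 and 0.58 in germ-like cells, *Mtf1* and *Slc30a1* near 0 in most classes, and the macrophage-like and endothelial-like values of *Mt2*, at -4.29 and -4.56, rest on 8 and 1 UMIs in Cnot3-cKO.

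The difference in SSC-like cells was spread over the cells. In control the median *Mt1* level of a cell was 953 CPM with quartiles of 681 and 1236 CPM, and in Cnot3-cKO the median was 1612 CPM with quartiles of 1187 and 2260 CPM. Of the 311 Cnot3-cKO cells, 83.9% lay above the control median and 46.3% above the control 90th percentile of 1671 CPM. Without the 2 cells with most *Mt1* UMIs, the Cnot3-cKO level was 1793 CPM. The libraries thus overlapped cell by cell, with the upper part of the Cnot3-cKO cells beyond most control cells.

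Cells varied more in *Mt1* than counting gives. With each cell thinned to 10000 UMIs, the variance of *Mt1* over SSC-like cells was 2.97 times its mean in control and 7.99 times in Cnot3-cKO, where random sampling of equal cells gives about 1. The intervals above are narrower than this spread between cells. *Mt1* and *Mt2* went together over cells, with a Spearman correlation of 0.53 over 253 control and 0.56 over 307 Cnot3-cKO SSC-like cells and of 0.31 and 0.20 over meiotic-like cells. These cells share a library, and the value is a description.

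**Figure D4:**
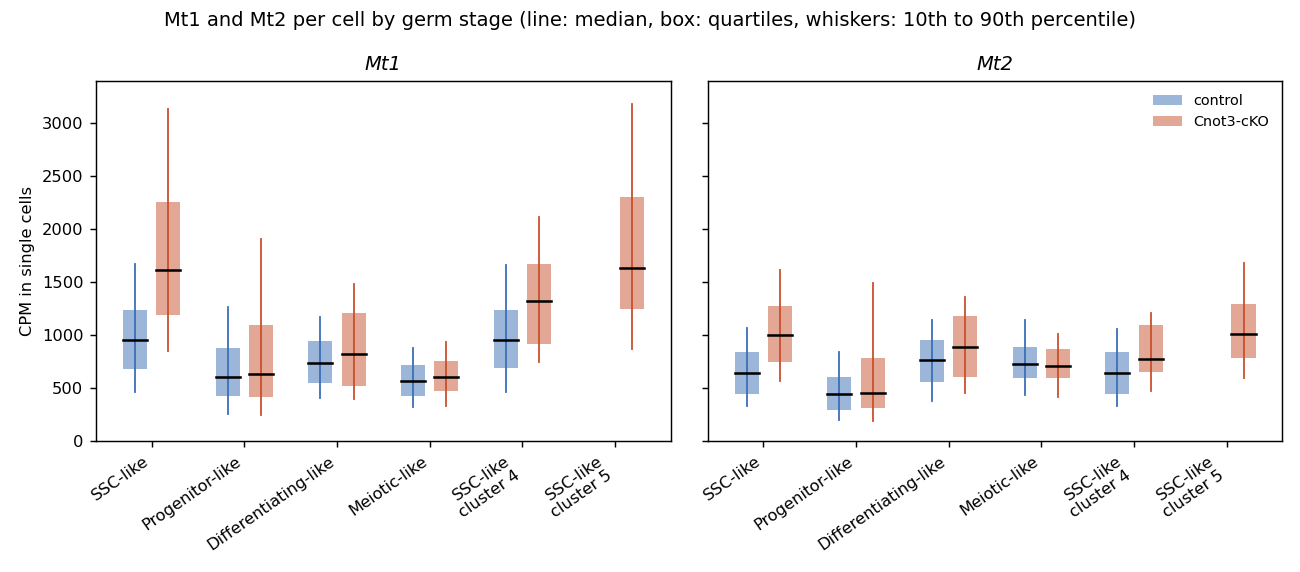
*Mt1* and *Mt2* levels of single cells (CPM, y axis) in the 4 germ stages and both SSC-like sub-clusters for control (blue) and Cnot3-cKO (red), with the median as a line, quartiles as a box and the 10th and 90th percentiles as whiskers. The median *Mt1* level is 953 CPM in control and 1612 CPM in Cnot3-cKO SSC-like cells and 563 and 605 CPM in meiotic-like cells, and sub-cluster 5 has no control box because it held 2 control cells.

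Nearly every germ cell held *Mt1*. With cells thinned to 10000 UMIs, which left out 25 and 10 shallower germ-like cells, at least 1 *Mt1* UMI was seen in 98.8% of those of the control and 98.7% of those of the Cnot3-cKO library (99.8% of both without thinning), against 50.5% and 54.8% of Sertoli-like cells and 16.7% and 21.7% of peritubular myoid-like cells. For *Mt2* the shares were 97.9% and 99.3% of germ-like cells, 8.47% and 8.14% of Sertoli-like cells and 4.82% and 5.12% of myoid-like cells. Free RNA was estimated at 5.32 of 5.75 CPM of *Mt2* in control and 3.98 of 5.52 CPM in Cnot3-cKO myoid-like cells, so most of their *Mt2* is read as background. Median depth was 42268 and 46152 UMIs in germ-like and 13288 and 12761 UMIs in Sertoli-like cells before thinning.

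Free RNA in the suspension held the same genes. Empty barcodes had *Mt1* at 343 and 351 CPM, *Mt2* at 200 and 190 CPM, *Mt3* at 52.3 and 82.4 CPM, *Mtf1* at 32.8 and 24.5 CPM and *Slc30a1* at 19.3 and 18.0 CPM in control and Cnot3-cKO. From Sertoli markers, free RNA was estimated at 2.10% and 2.32% of the UMIs of SSC-like cells, which would add 7.20 and 8.15 CPM of *Mt1*. The Sertoli markers themselves summed to 66.5 CPM in control and 113 CPM in Cnot3-cKO SSC-like cells, with 6 of 8 markers higher in Cnot3-cKO and none at 0. Stromal markers summed to 123 and 152 CPM in SSC-like cells (3 of 6 higher), myoid markers to 12.1 and 18.4 CPM (5 of 6) and macrophage markers to 4.05 and 6.40 CPM (6 of 6), with none at 0. Of all 10377 genes tested in SSC-like cells, 5822 were higher in Cnot3-cKO by any amount. For *Mt3*, which is a Sertoli transcript here, free RNA was estimated at 1.10 and 1.91 CPM in SSC-like cells. The estimate of 4.61 and 6.35 CPM in all germ-like cells includes the sub-clusters led by stromal or Sertoli genes. Most cells of those were called doublets, and Sertoli markers put their share at 40.0% and 31.4% of UMIs. The estimate over all germ-like cells is therefore not free RNA alone. Any further part of Sertoli RNA in the *Mt3* difference was not tested. With the empty-barcode profile taken out of germ-like cells at the share estimated over all of them, 8.81% and 7.71%, the *Mt1* log2 ratio was 0.96 and that of *Mt2* 0.58. Without the sub-clusters led by stromal or Sertoli genes, and with nothing subtracted, these ratios were 0.95 and 0.58.

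Outside the germ line the metallothioneins separated by cell class. Sertoli-like cells, the nurse cells of the tubule, had *Mt1* at 95.3 and 116 CPM (log2 ratio 0.29, 0.23 to 0.34) and *Mt2* at 9.39 and 9.40 CPM. They had the highest *Mt3* of any class, at 157 CPM (154 to 161) in 2885 control and 167 CPM in 4363 Cnot3-cKO cells, and *Mt3* was seen in 69.6% and 73.0% of thinned cells (77.1% and 78.8% unthinned), against 1.36% and 2.19% of interstitial cells. *Mtf1* was at 19.8 and 19.5 CPM and *Slc30a1* at 26.1 and 24.3 CPM, both with intervals that included no difference. No member reached 1.5-fold in Sertoli-like cells, where 1.1% of genes were at least 1.5-fold higher and 0.977% at least 1.5-fold lower. Of the Sertoli-like *Mt2*, an estimated 7.45 of 9.39 CPM in control and 4.81 of 9.40 CPM in Cnot3-cKO was free RNA, read from germ markers. Most of the control level thus could not be set apart from background, while a larger part of the Cnot3-cKO level lay above it. The near equal totals are not read as equal *Mt2* of the cells themselves, which was not tested.

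Interstitial cells, stroma and peritubular myoid cells together, had lower *Mt1*, *Mt3*, *Mtf1* and *Slc30a1* than Sertoli-like cells in both libraries. *Mt1* was at 34.9 and 44.9 CPM in all 3702 and 3933 of them, at 42.1 and 47.3 CPM in stroma-like cells (log2 ratio 0.17, 0.07 to 0.27) and at 21.0 and 40.8 CPM in myoid-like cells (log2 ratio 0.96, 0.79 to 1.14, from 390 and 829 UMIs). Of the myoid-like *Mt1*, free RNA was estimated at 9.11 CPM in control and 7.34 CPM in Cnot3-cKO. The myoid-like difference was as large on the log2 scale as that of germ-like cells, at a level far lower, and it fell to 0.37 (-0.10 to 0.81) when genes were centred within libraries, which left 141 Cnot3-cKO myoid-like cells. *Mt3* was at 1.33 and 2.75 CPM over interstitial cells, from 73 and 149 UMIs, and the estimate of free RNA was 1.404 and 1.72 CPM. *Mt2*, at 7.10 and 5.68 CPM, had a log2 ratio of -0.32 (-0.54 to -0.10), and of -0.03 once the empty-barcode profile was subtracted. Of the 5 genes only *Mt3* was past 1.5-fold in interstitial cells, and 1.35% of genes tested there were at least 1.5-fold higher and 1.1% at least 1.5-fold lower.

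Macrophage-like and endothelial-like cells were few. The 55 control and 63 Cnot3-cKO macrophage-like cells had *Mt1* at 237 and 159 CPM and *Mt2* at 138 and 7.04 CPM, from 169 and 8 *Mt2* UMIs. In the control library the 2 cells with most *Mt2* held 46.7% of these UMIs and both were called doublets, and germ markers summed to 349 CPM in the control and 13.2 CPM in the Cnot3-cKO macrophage-like cells. Without barcodes called doublets, which left 42 and 56 cells, the log2 ratio was 0.43 (0.04 to 0.83) for *Mt1* in place of -0.58, and -0.06 for *Mt2* in place of -4.29. Endothelial-like cells had 32 and 6 *Mt1* UMIs and 26 and 1 *Mt2* UMIs, with 9 of 37 control and 2 of 42 Cnot3-cKO cells called doublets. They had the highest *Slc30a1*, at 55.5 CPM (38.5 to 77.6) in control and 73.6 CPM (52.8 to 99.9) in Cnot3-cKO, followed in control by meiotic-like cells at 27.6 CPM and Sertoli-like cells at 26.1 CPM.

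Across the 18 sums of 9 classes in 2 libraries, *Mt1* and *Mt2* followed each other (Pearson r = 0.94 of log2(CPM + 1)), as did *Mt1* and *Mtf1* (r = 0.92), while *Mt3* followed *Slc30a1* (r = 0.69) more than *Mt1* (r = 0.11). Among the genes closest to *Mt1* were *Zfp622*, *Cstf1*, *Cep162*, *Hps1* and *Trmt6*, with r from 0.965 to 0.973. These sums share libraries and differ in depth, and most of the contrast is between germ and somatic classes.

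Other zinc carriers were taken as lists chosen with earlier results known. Each count of list members in germ-like cells stands beside 6.84% of all genes at least 1.5-fold higher and 3.14% at least 1.5-fold lower. Of 7 zinc exporters (the SLC30 family without *Slc30a1*) with enough UMIs in germ-like cells, none was past 1.5-fold in either direction, and the list median log2 ratio was -0.23. The farthest were *Slc30a2*, which loads zinc into vesicles, at 6.62 and 8.86 CPM (log2 ratio 0.42), *Slc30a4* at 11.4 and 9.60 CPM and *Slc30a9* at 32.3 and 27.5 CPM. Of 10 zinc importers (the SLC39 family), 1 was past 1.5-fold higher and 1 lower, with a median of -0.21. *Slc39a4*, the intestinal zinc uptake carrier, was at 1.45 and 3.78 CPM from 82 and 98 UMIs, *Slc39a1*, an importer of the plasma membrane, at 19.4 and 12.8 CPM (log2 ratio -0.60), and *Slc39a7*, which releases zinc from the endoplasmic reticulum, at 71.6 and 57.8 CPM.

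Carriers also differed by class. In control cells *Slc30a2* and *Slc30a9* were highest in Sertoli-like cells, at 50.3 and 58.2 CPM, as was the importer *Slc39a6* at 82.1 CPM. Among the importers highest in endothelial-like cells were *Slc39a10* at 127 CPM from 78 UMIs and *Slc39a8* at 67.0 CPM from 41 UMIs. *Slc30a1* was highest in this class as well. *Slc39a1* was also highest there, at 96.4 CPM from 59 UMIs in control, and was at 55.7 CPM in Cnot3-cKO. Others were close to the next class, macrophage-like cells. These are *Slc39a3*, at 14.7 against 13.9 CPM from 9 UMIs, and *Slc39a9*, at 21.2 against 16.3 CPM from 13 UMIs. The class held 37 control cells, of which 9 were called doublets. The share of all genes that were highest in it was not computed, so no count is read.

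The lists for metals were read beside the same 6.84% and 3.14% of all genes. Of 6 other genes linked to MTF1 with enough UMIs, *Gclc*, the catalytic subunit of the enzyme that starts glutathione synthesis, was at 103 CPM in control and 171.5 CPM in Cnot3-cKO (log2 ratio 0.73, 0.68 to 0.79) and the other 5 were within 1.5-fold, including *Pgf* at 2.77 and 2.12 CPM and *Ndrg1* at 18.1 and 14.5 CPM. Copper genes gave none of 11 past 1.5-fold, with *Cox17*, the copper chaperone of cytochrome oxidase, at 70.2 and 52.1 CPM, and the copper pumps *Atp7a* at 13.9 and 11.4 CPM and *Atp7b* at 2.40 and 3.05 CPM. Iron genes gave 1 of 10, *Hmox1*, the haem oxygenase, at 76.3 and 127 CPM (log2 ratio 0.74), whereas *Tfrc*, the transferrin receptor, was at 53.7 and 67.2 CPM and *Slc11a2*, an iron importer, at 12.3 and 10.8 CPM.

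Lists for other inducers of metallothionein were uneven. Glucocorticoid response genes gave none of 9 past 1.5-fold, with a median log2 ratio of 0.00, *Fkbp5* at 36.5 and 45.6 CPM, *Tsc22d3* at 226 and 185 CPM and *Cebpd* at 2.67 and 3.66 CPM. Targets of NRF2, the factor of the oxidant response, gave 4 of 11 at least 1.5-fold higher and none lower, with a median of 0.24, among them *Nqo1* at 2.10 and 5.16 CPM (119 and 134 UMIs), and again *Gclc* and *Hmox1*, which are on this list too. Heat shock genes gave none of 9 past 1.5-fold, with a median of 0.27, and *Hspa1b*, *Hsph1* and *Hspb1* at log2 ratios of 0.49, 0.46 and 0.45. By any amount, 8 of the 9 were higher, beside 7006 of all 13297 genes tested. Beside these shares, 6.84% of all genes were at least 1.5-fold higher.

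Immediate early genes, which also rise when tissue is taken apart, were counted in the same way. In germ-like cells 6 of 7 were at least 1.5-fold higher, beside 6.84% of all genes, with a median log2 ratio of 0.68, *Junb* at 9.37 and 32.6 CPM, *Fos* at 14.4 and 48.3 CPM and *Jun* at 35.2 and 59.2 CPM. In interstitial cells, where *Cnot3* was at 45.5 and 45.0 CPM, all 7 with enough UMIs were at least 1.5-fold higher, beside 1.35% of all genes, with a median of 1.38. In SSC-like cells 3 of 7 were, beside 9.27% of all genes. In Sertoli-like cells 1 of 8 was, beside 1.1% of all genes, and the median was 0.13. The part of handling or stress of the suspension in the metallothionein differences was not tested.

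**Figure D5:**
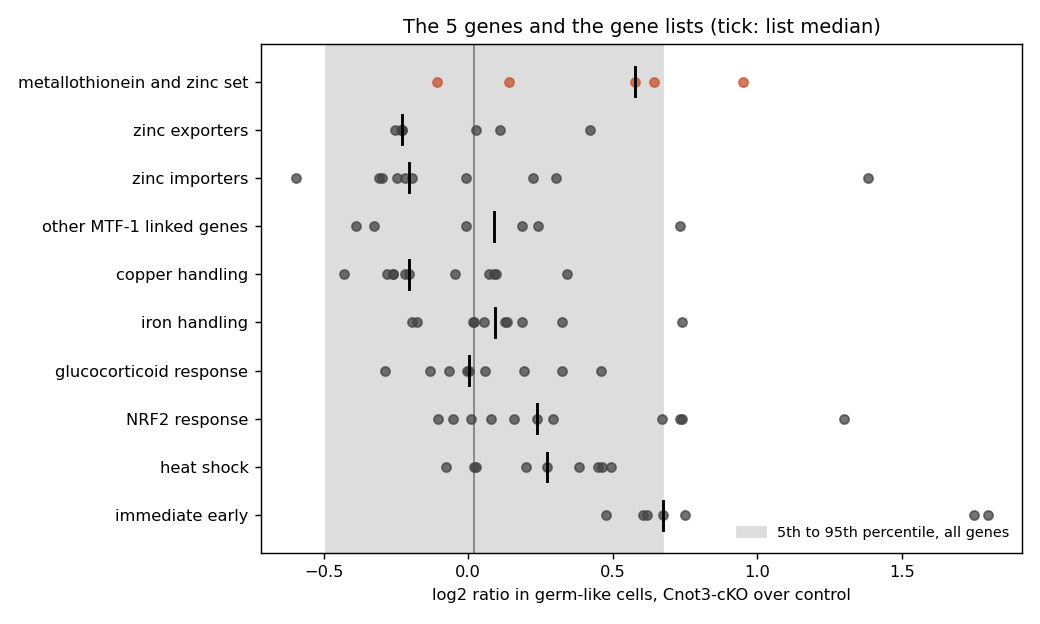
Log2 ratios, Cnot3-cKO against control, in germ-like cells (x axis) of the 5 genes (red, top row) and of each gene with at least 100 UMIs in the 9 lists (dark grey), with the median of all genes as a grey line, list medians as black ticks and the 5th to 95th percentile of all genes, -0.49 to 0.68, shaded. The exporter, importer and copper lists have medians below 0, and the immediate early list has the highest, at 0.68.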

How the data were processed

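Sorted testis cells of 4 samples, 2 per genotype, were measured by 10x Genomics 3′ v3.1. The authors made the deposited raw UMI counts with Cell Ranger 3.0.1 on mm10, as named in the submitters' processing notes, with both samples of a genotype merged and all 6794880 barcodes listed. Per the labels, groups are genotypes. The 5 genes and the lists were chosen with earlier results of these data known.

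Cell calling used the order-of-magnitude threshold of Cell Ranger for 3000 expected cells. Mitochondrial shares up to 20% were kept with no upper bound on UMIs, because the stated filters (10%, mean ± 2 SD) remove most germ cells and were run as an alternative. Doublets were called with Scrublet and kept. Clustering (scanpy 1.11.5, 2500 variable genes, 30 components, 15 neighbours, Leiden resolution 0.5) left out the 5 genes, the listed genes and mitochondrial genes, and germ sub-clustering also cell-cycle genes. Clusters were named from marker lists, and 247 control and 307 Cnot3-cKO cells stayed unnamed. Summed counts (CPM) have exact Poisson intervals, ratios exact conditional intervals and shares Clopper-Pearson intervals (95%), which cover counting error only. Genes needed 100 UMIs over both libraries. Empty barcodes had at most 100 UMIs. With 1 library per genotype no test between genotypes was made. The ratio and interval steps were tested on simulated data. Named were the 5 genes, up to 3 genes per list with the largest ratio in germ-like cells, and the 6 genes most correlated with *Mt1*, of which 1 is not reported here. Carriers named by class were picked after their values were seen. Protein sequences were not used here.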

Additional observations from a re-analysis of the deposited data

Results flagged for a closer look

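Some classes went the other way from germ-like cells, where log2 ratios (Cnot3-cKO to control) were 0.95 for *Mt1* and 0.58 for *Mt2*. None of these differences between classes was tested, since each genotype has 1 library.

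*Mt2* had a log2 ratio of -0.32 in interstitial cells and -0.43 in stroma-like cells, at levels of 7.79 and 5.78 CPM in the latter, of which an estimated 5.40 and 3.96 CPM was free RNA. In macrophage-like cells the log2 ratio was -0.58 for *Mt1* and -4.29 for *Mt2*, and 13 of 55 control and 7 of 63 Cnot3-cKO cells were called doublets. Without them it was 0.43 and -0.06. In endothelial-like cells it was -2.28 for *Mt1*, from 32 and 6 UMIs, and -4.56 for *Mt2*, from 26 and 1 UMIs. Free RNA, read from germ markers, was estimated there at 63.8 CPM of *Mt1* in control, where 52.3 CPM was seen, and at 9.65 of 10.8 CPM in Cnot3-cKO. For *Mt2* the estimate was 37.3 of 42.5 CPM in control and 5.23 CPM in Cnot3-cKO, where 1.80 CPM was seen. These levels thus could not be set apart from background. Without doublets the *Mt1* value was -2.13, with an interval of -7.85 to 1.51 that includes no difference.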

How the results depend on the processing

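In germ-like cells 10 of 13 alternatives kept the *Mt1* ratio within its main interval, 10 of 13 that of *Mt2*, 12 of 13 that of *Slc30a1* and 11 of 13 that of *Mtf1*. At resolution 1.0 the germ-like cells numbered 1333 and 560, as in the main setting, and with centring 1333 and 561. Agreement under those alternatives was nearly given in advance, so the tallies are not a measure of robustness. *Mt1* and *Mt2* were higher in Cnot3-cKO in all 13. The stated filters, which left 241 and 73 germ-like cells, gave log2 ratios of 1.03 for *Mt1*, 0.53 for *Mt2* and -0.043 for *Mtf1*. The *Mtf1* value changed sign, but its interval (-0.39 to 0.29) included no difference and the main value of 0.14. A mitochondrial limit of 10% alone gave 1.02 and 0.51 for *Mt1* and *Mt2*. Stages weighted as in control, under the main clustering only, gave 0.40, 0.28, -0.32 and 0.047 for *Mt1*, *Mt2*, *Slc30a1* and *Mtf1*. The weighted *Slc30a1* value rests on the progenitor-like stage, with 4 UMIs in 14 Cnot3-cKO cells. Its log2 ratios in SSC-like, differentiating-like and meiotic-like cells were 0.09, 0.09 and 0.13, with intervals that included no difference. The weighted value is therefore not read as a lower exporter at matched stage. The causes of the other shifts were not tested. *Slc30a1* was above 0 under 1 alternative, at 0.04. Chosen after the data were seen, 6 alternatives of the SSC-like ratio ranged from 0.43 to 1.09 for *Mt1* and from 0.43 to 0.93 for *Mt2*, and the *Mt1* ratio in macrophage-like cells reversed to 0.43 without doublets. With a mitochondrial limit of 10% the SSC-like cells held 8 control cells and no ratio was computed.

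The 909 genes higher and 417 lower became 1799 and 751 at a minimum of 20 UMIs, 356 and 203 at 500 UMIs, and 251 and 78 at 2-fold, by construction. Of 76 listed genes, 11 were higher and 1 lower at 1.5-fold, and 4 and 0 at 2-fold. *Mt1* was seen in 50.5% of Sertoli-like control cells thinned to 10000 UMIs, 32.9% at 5000 UMIs and 58.6% unthinned. No paired analysis was possible because both samples of a genotype are merged into 1 matrix, and for the same reason no replicate could be left out.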
